A study of Mus musculus with 6 samples.

Results

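The 40 genes described here cover the uptake of glucose, its breakdown to pyruvate and lactate, and the response of cells to low oxygen. They were taken by name from a list drawn up with earlier results of these data known, the rule itself using no measured value, and for a symbol with several loci the locus with the highest mean was taken. All 40 were found among 45291 gene symbols (47086 loci) of the deposited table, and Eno1 and Hk2 each had a further locus that was not used. RNA sequencing was performed on total RNA from primary hippocampal neuron cultures of C57BL/6 mice, taken from newborn pups and grown for 14 days in vitro (DIV 14). There were 3 libraries of wild type (WT) cultures and 3 of cultures from Fmr1 knockout (KO) mice, a model of fragile X syndrome in which the gene for the RNA-binding protein FMRP is disrupted in all cells, and the labels name no treatment for either group. The labels do not say which libraries came from separate litters or cultures, so the tests measure only the spread between these libraries, which may be technical. According to the study's methods, its knockout mice were males, bred with their wild type littermates from heterozygous mothers and wild type fathers, and the sex of the pups is not given separately for these cultures. The purpose of the comparison was to find the transcripts that differ between the genotypes.

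The values are FPKM (fragment counts scaled to the length of the transcript and to the mapped fragments of the library), 1 per library and locus, and the read depth behind them is not known. Fmr1 itself, on the X chromosome, measured 19.0, 19.5 and 19.7 FPKM in WT and 23.1, 21.8 and 18.5 FPKM in the KO libraries, so its transcript level does not check the labels, and "Fmr1 KO" here means the libraries labelled so. The small noncoding RNA Bc1 made up 73.7 to 80.6% of the summed FPKM of a library. Among cell type markers, Rbfox3 (a nuclear protein of neurons) measured 47.4 to 56.2 FPKM in WT and 46.9 to 52.9 FPKM in Fmr1 KO, and Gfap (the filament protein of astrocytes) 542 to 633 FPKM in WT and 597 to 675 FPKM in Fmr1 KO. Markers of neurons and of astrocytes were thus both expressed. The oligodendrocyte lineage marker Olig1 was at 154 to 202 FPKM, whereas the microglia marker Aif1 was listed at 0 in all 6 libraries, and the endothelial marker Pecam1 and the fibroblast marker Col1a1 were at or below 1.11 FPKM. Single markers do not stand for their lists. The 8 fibroblast and mural cell markers summed to 47.7 to 52.3 FPKM in WT and 39.1 to 47.1 FPKM in Fmr1 KO. The 9 microglia markers summed to 4.19 to 6.33 FPKM in WT and 1.06 to 2.41 FPKM in Fmr1 KO. In bulk RNA of this kind, fewer cells of a type and less RNA per cell cannot be told apart.

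Glycolysis splits glucose into pyruvate and yields ATP without oxygen. Glucose enters through transporters of the Slc2a family, is phosphorylated and cleaved into triose phosphates, and these are oxidised to pyruvate, which is either burned in mitochondria or reduced to lactate and exported. In brain, astrocytes are known for strong glycolysis and lactate release, and neurons take up glucose mainly through Slc2a3. When oxygen is low, the prolyl hydroxylases of the Egln family no longer mark the HIF alpha subunits for destruction. HIF then pairs with Arnt and binds a short core motif in the promoters of many glycolytic genes, of Vegfa (a growth factor for vessels) and of Bnip3 (a mitochondrial death and mitophagy protein).

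The HIF core motif was more frequent among these genes than among others, though not common to all of them. The list includes genes known as HIF targets, so an excess of the motif is partly built into the choice and is no independent finding. The HIF core motif was searched as ACGTG and as GCGTG on both strands in RefSeq promoter windows from 250 bases before to 50 bases after each annotated start (GRCm38.p6). Windows were given for 34 of the 40 genes. ACGTG was found for 24 of these 34 (70.6%), against 29.7% of 9767 tested genes and 21.8% of 27025 genes with a window. Genes differ in their number of windows, and counted by window, ACGTG was in 28 of 50 (56.0%) for the 40 genes and in 25.3% for tested genes. Either motif was found for 31 of 34 (91.2%) against 68.7% of tested genes. All 7 hypoxia response genes with a window held ACGTG. Gpi1, Tpi1 and Eno2 held neither motif in these letters, which says nothing of the factor. A stretch around the match is shown for 8 genes that the comparisons below return to, each written 5′ to 3′ on the strand of its gene. Capitals mark ACGTG, its reverse complement CACGT, or CACGTG, where the motif lies on both strands.
Slc2a1 (chr4:119108697-119108725, plus strand): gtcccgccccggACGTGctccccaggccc
Aldoa (chr7:126799364-126799392, minus strand): tgtggctcgagtCACGTcctagcggggcg
Pgk1 (chrX:106186957-106186985, plus strand): aaatggaagtagCACGTctcactagtctc
Ldha (chr7:46845758-46845786, plus strand): cgtgggttcccgCACGTccgctgggctcc
Egln1 (chr8:124949306-124949334, minus strand): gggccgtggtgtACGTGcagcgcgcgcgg
Bnip3 (chr7:138909597-138909625, minus strand): cgcacgcgccgCACGTGccacacgctccc
Car9 (chr4:43506996-43507024, plus strand): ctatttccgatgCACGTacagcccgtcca
P4ha1 (chr10:59323268-59323295, plus strand): tgtgacagagcgCACGTagcgagggctg
These stretches lie before the annotated start, and those of Slc2a1, Egln1 and Car9 also overlap an exon of the gene in GENCODE M21. A match is a description of the letters and not a measured binding site.

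The genes were expressed at widely different levels. The median gene of the 40 lay at the 79.8th percentile of the tested loci by mean FPKM, 9 genes were over 100 FPKM and 3 were under 5 FPKM. FPKM are scaled to transcript length, so that levels of different genes can be set side by side. Aldoa (aldolase A, which cleaves fructose bisphosphate) was the highest, followed by Ldha (lactate dehydrogenase A), Tpi1 (triose phosphate isomerase), Pkm (pyruvate kinase) and Vegfa. Gapdh, Ankrd37 and Pfkfb4 were the lowest. The plot of levels by library shows that the range over genes was far wider than the range over libraries for any gene.

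**Figure D1:**
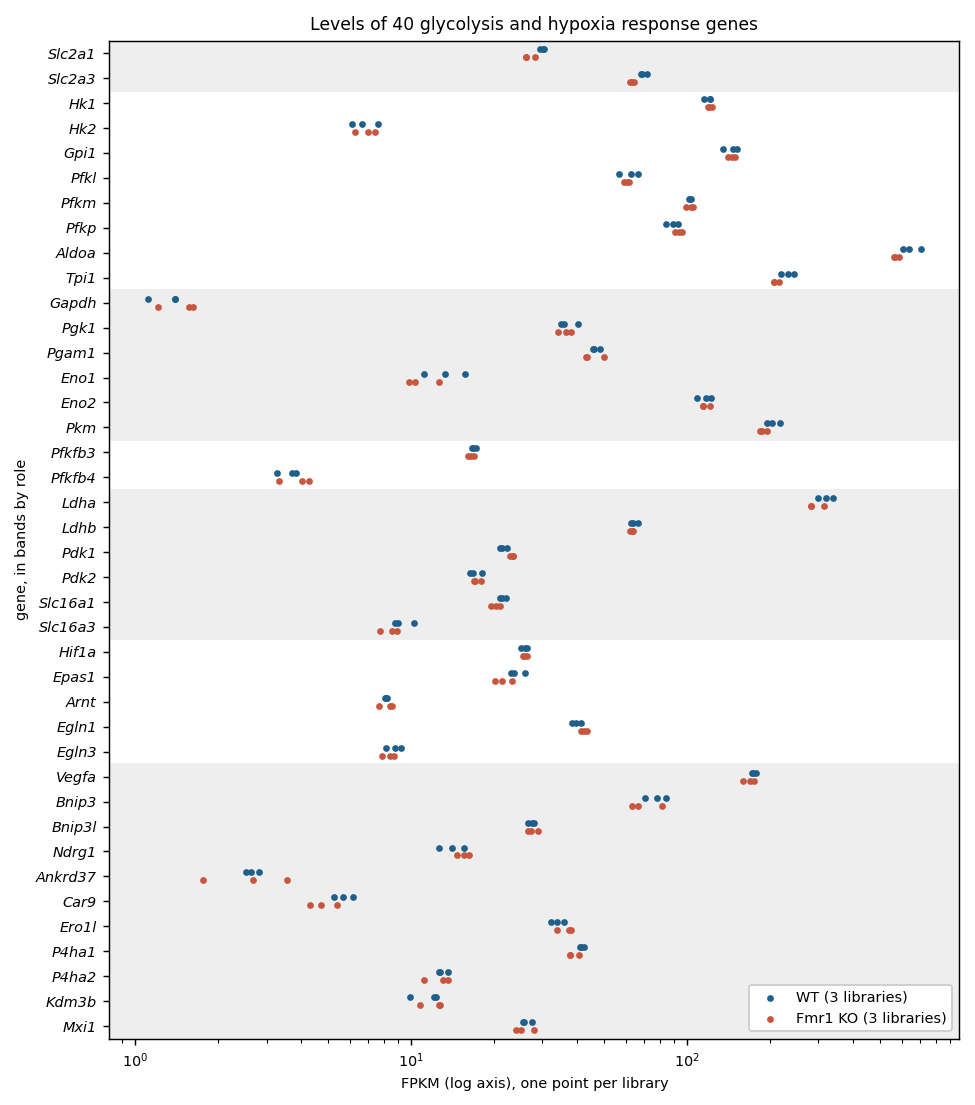
FPKM of each of the 40 genes on a log axis, with 1 point per library, WT in blue above and Fmr1 KO in red below. Shaded and white bands separate, from top to bottom, glucose transporters, the steps to triose phosphates, the steps to pyruvate, Pfkfb enzymes, pyruvate and lactate handling, oxygen sensing, and hypoxia response genes. Aldoa reached 704 FPKM and Gapdh stayed under 2 FPKM, and the libraries of the genotypes lay apart for 6 genes.

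None of the 40 genes differed between Fmr1 KO and WT at an adjusted p below 0.05 (limma on log2(FPKM + 0.1), Benjamini-Hochberg over all 13195 tested loci), where 35 of all tested loci (0.265%) did. The lowest adjusted p of any of the genes was 0.216, for Slc2a1. At an unadjusted p below 0.05, 6 of the 40 were lower in Fmr1 KO (Slc2a1, Slc2a3, Aldoa, Tpi1, Epas1 and Car9), against 7.77% of the tested loci, and 0 were higher, against 6.99%. Libraries of the genotypes did not overlap for 5 genes that were lower in Fmr1 KO (12.5% of the 40, against 10.3% of tested loci) and for 1 that was higher (2.5%, against 10.8%). The shares of genes with separate libraries that were lower in Fmr1 KO are near the background, and the count of 6 changed when single libraries were left out. Without Fmr1 KO replicate 3 only Epas1 was left of the 6, while without Fmr1 KO replicate 1 there were 9 genes. Slc2a1, Slc2a3 and Aldoa then lay just above the threshold, at 0.0519, 0.0523 and 0.0546 without Fmr1 KO replicate 3 (limma, unadjusted p). With 1 library left out, the log2 difference stayed between -0.200 and -0.142 for Slc2a1 and between -0.150 and -0.116 for Slc2a3. The share of all tested loci is not given for these smaller fits. With the libraries rescaled to the same sum without Bc1, 0 of the 40 were lower at that level. That sum was 413679, 411860 and 541226 FPKM in WT replicates 1, 2 and 3, and 433292 to 483083 FPKM in Fmr1 KO. Rescaling thus moved WT replicate 3 away from the other WT libraries. Before it, the median deviation of all tested loci from the WT mean was 0.0049, -2.26e-05 and 0.00079 in these 3 libraries.

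The differences were small. The log2 difference of Fmr1 KO minus WT ranged from -0.28 for Eno1 to 0.16 for Gapdh, and 38 of the 40 differences were under 0.2 in size. By sign, 23 genes were lower and 17 higher in Fmr1 KO, of which 9 took the opposite sign after the libraries were rescaled to the same sum without Bc1, with a median of -0.03 beside 0.005 over all tested loci. The share lower by sign was 57.5% for the 40 genes and 48.3% for all tested loci. The median size of the difference, whatever its sign, was 0.0761 for the 40 genes and 0.0849 for all tested loci. The 95% intervals of 34 genes included 0, and the lowest and highest bounds of any interval were -0.58 for Eno1 and 0.56 for Gapdh.

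**Figure D2:**
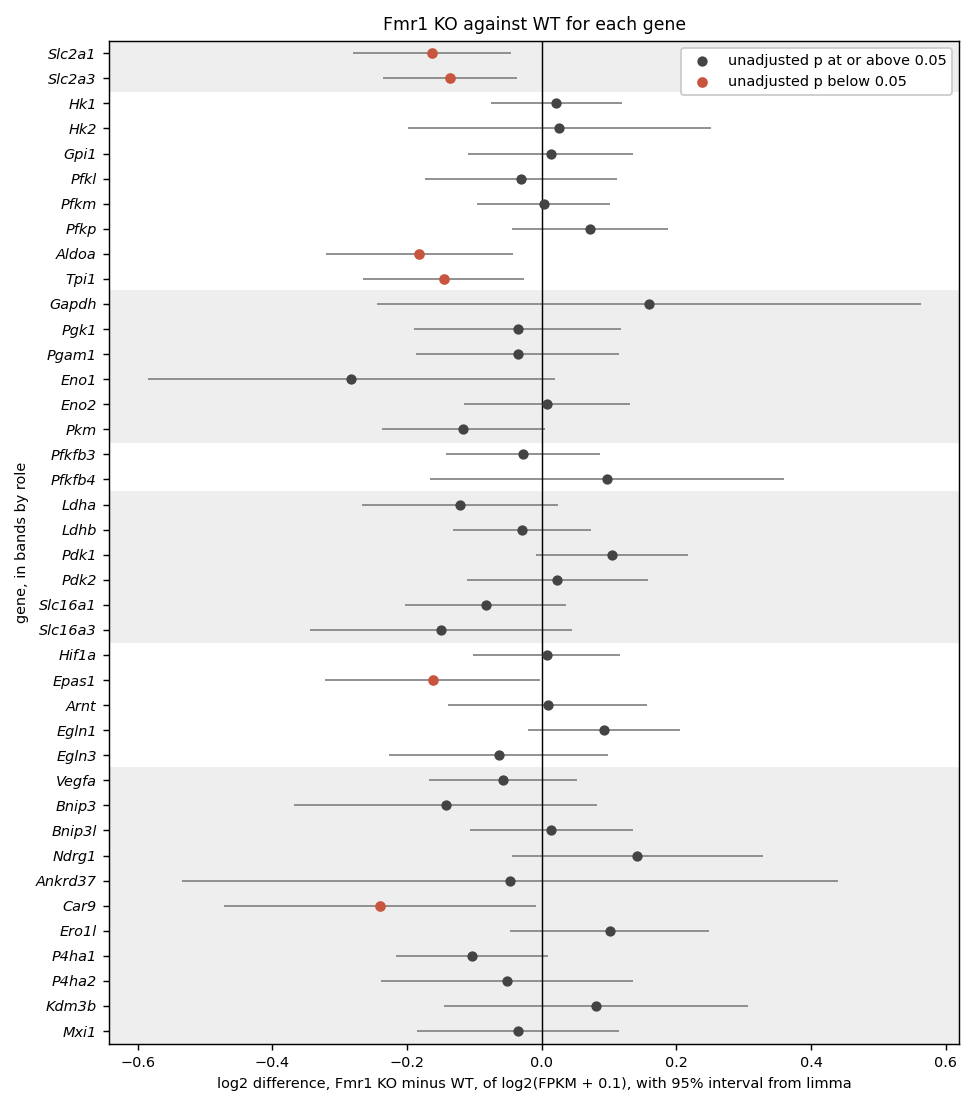
Difference between the genotypes for each gene, on the scale of log2(FPKM + 0.1), as the point and 95% interval from limma with 3 libraries per genotype. Negative values are lower in Fmr1 KO. The 6 red points are those at an unadjusted p below 0.05, all of them to the left of 0, and the widest intervals belong to Gapdh, Ankrd37 and Eno1.

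Both glucose transporters were lower in every Fmr1 KO library than in any WT library. Slc2a1 (GLUT1, the transporter of glia and of the vessel wall; chr4:119108744-119137330, GRCm38) measured 30.4, 30.2 and 29.5 FPKM in WT and 28.3, 26.2 and 26.03 FPKM in Fmr1 KO. Its Fmr1 KO mean was 89.3% of the WT mean, a log2 difference of -0.16 ± 0.05 (SE, n = 3 per genotype; limma adjusted p = 0.216). Slc2a3 (GLUT3, the transporter of neurons; chr6:122727808-122802274) measured 68.4, 71.5 and 69.0 FPKM in WT and 64.6, 63.1 and 62.3 FPKM in Fmr1 KO, a log2 difference of -0.14 ± 0.04 (SE, n = 3 per genotype; limma adjusted p = 0.221). The ratio of Slc2a1 to Slc2a3 within a library overlapped between the genotypes, at 0.423 to 0.444 in WT and 0.415 to 0.438 in Fmr1 KO. The vessel wall list was near the floor of the table, with 6 of 7 endothelial markers under 1 FPKM in the mean of both genotypes. Its summed level was 2.93 to 3.16 FPKM in WT and 1.65 to 2.63 FPKM in Fmr1 KO, and its part in the lower Slc2a1 was not tested.

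The hexokinases, which trap glucose in the cell as its phosphate, overlapped between the genotypes. Hk1, the form bound to mitochondria in brain, was at 121, 121 and 116 FPKM in WT and at 119.8, 120.1 and 123 FPKM in Fmr1 KO. Hk2, a form of muscle and of proliferating cells, was much lower at 6.10 to 7.63 FPKM in WT and 6.30 to 7.41 FPKM in Fmr1 KO. Hk2 amounted to 0.0511 to 0.0631 of Hk1 in every library. Gpi1, which turns glucose phosphate into fructose phosphate, measured 135 to 151 FPKM in WT and 142 to 149 FPKM in Fmr1 KO. The log2 differences of these genes were 0.02 ± 0.04, 0.03 ± 0.10 and 0.01 ± 0.05 (SE, n = 3 per genotype).

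Phosphofructokinase, which commits sugar to glycolysis, is a tetramer built from Pfkl, Pfkm and Pfkp subunits. Pfkm supplied 39.4 to 42.3% of the summed FPKM of the subunits in a library, Pfkp 34.5 to 37.2% and Pfkl 23.2 to 25.8%. Pfkl was at 56.8 to 66.7 FPKM in WT and 59.0 to 61.8 FPKM in Fmr1 KO. Pfkp measured 89.3, 93.1 and 84.4 FPKM in WT and 93.8, 95.7 and 90.7 FPKM in Fmr1 KO, which overlap, with a log2 difference of 0.07 ± 0.05 (SE, n = 3 per genotype). Pfkm shared its locus in the table with the noncoding gene Gm26513 and stayed between 99.2 and 106 FPKM over all 6 libraries. No subunit set the genotypes apart.

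Aldoa and Tpi1, which act one after the other, were both lower in all Fmr1 KO libraries than in any WT library. Aldoa (chr7:126795233-126809510) measured 704, 639 and 606 FPKM in WT and 588, 567 and 561 FPKM in Fmr1 KO. Its Fmr1 KO mean was 88.0% of the WT mean, a log2 difference of -0.18 ± 0.06 (SE, n = 3 per genotype; limma adjusted p = 0.236). Tpi1 (chr6:124808573-124814296) measured 245, 233 and 219 FPKM in WT and 216, 207 and 207 FPKM in Fmr1 KO, a log2 difference of -0.15 ± 0.05 (SE, n = 3 per genotype; limma adjusted p = 0.260). In both genes the lowest WT library, replicate 3, was close to the highest Fmr1 KO library, replicate 1. The difference in Aldoa ranged from -0.23 to -0.12 and that in Tpi1 from -0.19 to -0.11 when 1 library at a time was left out. Aldoc, the aldolase of astrocytes and no member of the 40, was at 337 to 381 FPKM in WT and 326 to 366 FPKM in Fmr1 KO, and the ratio of Aldoc to Aldoa overlapped, at 0.480 to 0.628 in WT and 0.555 to 0.652 in Fmr1 KO.

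In the steps from triose phosphates to pyruvate, no gene had libraries that were apart. Eno1, the enolase found in most tissues, measured 15.8, 13.3 and 11.2 FPKM in WT and 12.7, 9.89 and 10.3 FPKM in Fmr1 KO. Its log2 difference of -0.28 ± 0.13 (SE, n = 3 per genotype; limma adjusted p = 0.369) was the lowest of the 40, though the WT libraries alone ran from 11.2 to 15.8 FPKM. Eno2, the enolase of neurons, was at 122, 117 and 109 FPKM in WT and 121, 115 and 114 FPKM in Fmr1 KO, a difference of 0.01 ± 0.05. The ratio of Eno1 to Eno2 was 0.102 to 0.129 in WT and 0.0861 to 0.105 in Fmr1 KO (exact permutation test, two-sided, p = 0.2). Pkm, which makes pyruvate, measured 218, 203 and 196 FPKM in WT and 196, 185 and 188 FPKM in Fmr1 KO, a log2 difference of -0.12 ± 0.05 (SE, n = 3 per genotype; limma adjusted p = 0.357). The WT replicate 3 and Fmr1 KO replicate 1 libraries met at the boundary.

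Pgk1, which makes ATP from bisphosphoglycerate, ranged from 35.1 to 40.4 FPKM in WT and from 34.2 to 38.0 FPKM in Fmr1 KO. Pgam1, the mutase that follows it, ranged from 45.6 to 48.3 FPKM in WT and from 43.0 to 50.2 FPKM in Fmr1 KO. Their log2 differences were both -0.04 ± 0.07 (SE, n = 3 per genotype). Gapdh, which oxidises the triose phosphate, measured 1.39, 1.12 and 1.40 FPKM in WT and 1.21, 1.62 and 1.57 FPKM in Fmr1 KO, the lowest level of the 40. Its neighbours in the pathway were far higher.

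Several of these enzymes have pseudogene copies, and the deposited values divide between the gene and its copies in a way that the sources do not describe. Coding sequence from GENCODE M21 was read in stretches of 50 bases, of which 1 in 8 were sampled, and 12 of the 40 genes (30%) had over 10% of them in other genes as well, against 8.96% of 11812 tested symbols. The share was 100% for Pgk1 and Pgam1, 95.1% for Gapdh, 83.9% for Bnip3l, 77.4% for Eno1, 74.6% for Bnip3, 39.2% for Pkm, 29.3% for Ldhb, 27.4% for Gpi1 and Ldha, 14.9% for Aldoa and 10.4% for Tpi1. For 26 genes it was 0. Gapdh is the extreme case, since, over all of its stretches, 221 other genes held at least 1 of its 50-base stretches and only 60 of its 1028 stretches were in no other gene. The following stretch, coding bases 493 to 542 of 1077 in the transcript Gapdh-202, is found in 84 other genes and is shown for that reason.
Gapdh: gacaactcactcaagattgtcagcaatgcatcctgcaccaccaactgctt
Of the Gapdh copies, 174 were in the table, 82 of them listed at 0 in every library. The deposited range of the Gapdh locus was also 21268 bases long, against 4753 for the gene in GENCODE M21, and reached over part of Iffo1 on the other strand. Loci with separate values can share 1 range, as Peli2 and Gm6498 do at chr14:48120776-48281578. The range thus does not show that reads of Iffo1 were counted for Gapdh.

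The pseudogene rows held as much signal as some of the genes. Gm4735, a copy of Eno1 on chr2:80837094-80838773, was at 146 FPKM in WT and 142 FPKM in Fmr1 KO, where Eno1 itself had 13.4 and 11.0 FPKM. Gm1840, a copy of Gpi1, was at 189 and 191 FPKM, Pgam1-ps2 at 101 and 99.5 FPKM, and Tpi-rs11 at 95.5 and 85.2 FPKM. Of its family's sum, Eno1 was 7.80%, Gapdh 10.1%, Pgam1 31.5% and Gpi1 43.2%, while Ldha was 96.0% and Pgk1 85.5%. Reads of a gene and of such a copy cannot be separated over shared stretches, so the levels of these genes and their place in the order above are uncertain.

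**Figure D3:**
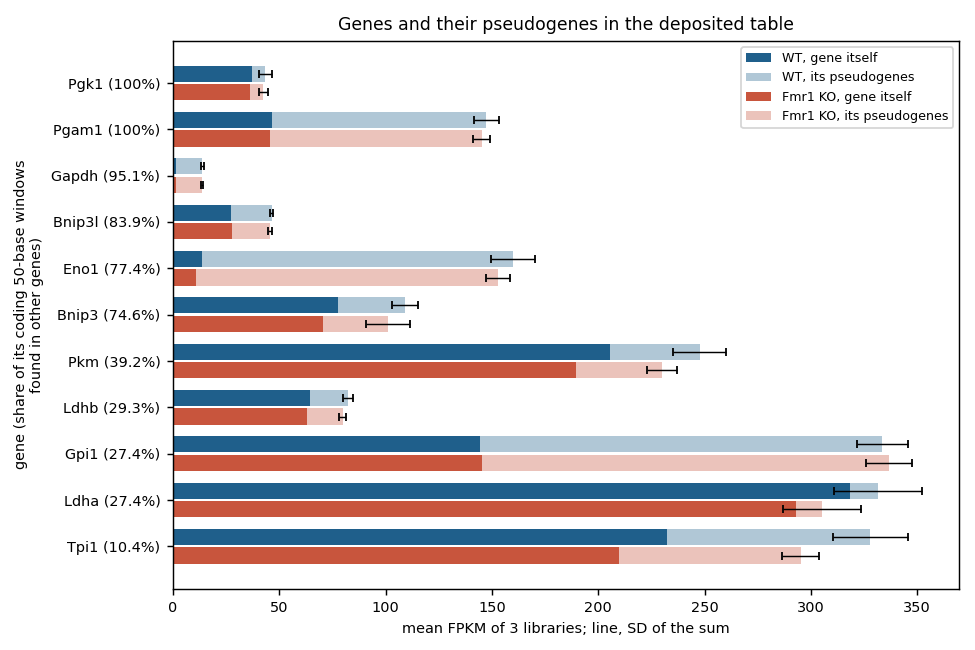
Mean FPKM of 11 genes that have a pseudogene over 1 FPKM in the table, with the gene itself in full colour and the sum of its pseudogenes in pale colour, for WT (blue) and Fmr1 KO (red). Black lines are the SD of the sum over 3 libraries, and the percentage is the share of the gene's coding 50-base stretches found elsewhere. For Eno1, Gapdh, Pgam1 and Gpi1 most of the bar belongs to the pseudogenes, and at the scale of the whole bar the genotypes lie close together.

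When each gene was summed with its pseudogenes, an alternative added after seeing the data, the Eno1 difference shrank from -0.28 to -0.06 (log2 of the summed FPKM; exact permutation test, two-sided, p = 0.5). The Gapdh difference went from 0.16 to -0.01. The other families moved little. Tpi1 kept a difference of -0.15 with non-overlapping libraries, at a sum of 328 ± 17.7 FPKM in WT and 295 ± 8.48 FPKM in Fmr1 KO (SD, n = 3; exact permutation test, two-sided, p = 0.1, the smallest that 3 against 3 libraries allow). The only copy in that sum, Tpi-rs11, held 7.2% of the sampled Tpi1 stretches, so the sum says little about reads that could belong to either. Pkm stood at -0.11, Ldha at -0.12 and Bnip3 at -0.11, with overlapping libraries.

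Pfkfb3 and Pfkfb4 make and remove fructose 2,6-bisphosphate, which switches on phosphofructokinase and is not the fructose bisphosphate that Aldoa cleaves. Pfkfb3 was even over all libraries, at 16.7 to 17.2 FPKM in WT and 16.2 to 16.9 FPKM in Fmr1 KO. Pfkfb4 was at 3.28, 3.71 and 3.85 FPKM in WT and 3.33, 4.04 and 4.28 FPKM in Fmr1 KO, a log2 difference of 0.10 ± 0.12 (SE, n = 3 per genotype). In each genotype replicate 1 had the lowest Pfkfb4 value.

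Of the enzymes that decide the fate of pyruvate, Pdk1 was the gene with all Fmr1 KO libraries above all WT libraries. Pdk1, a kinase that shuts off pyruvate dehydrogenase and is a known HIF target, measured 21, 22.3 and 21.4 FPKM in WT and 23.4, 23.4 and 22.8 FPKM in Fmr1 KO. The log2 difference was 0.10 ± 0.05 (SE, n = 3 per genotype; limma adjusted p = 0.376), with a 95% interval from -0.01 to 0.22. Pdk2, a kinase of the same family, overlapped at 16.4 to 18.1 FPKM in WT and 17.0 to 18 FPKM in Fmr1 KO. Ldha, which favours lactate, measured 339, 319 and 298 FPKM in WT and 315, 282 and 282 FPKM in Fmr1 KO, a log2 difference of -0.12 ± 0.06 (SE, n = 3 per genotype; limma adjusted p = 0.427). Its deposited locus reached into the testis gene Ldhc, on the same strand, as that gene is annotated in GENCODE M21. In the deposited values Ldhc has its own locus, which does not overlap that of Ldha and is listed at 0 in every library. Ldhb, which favours pyruvate, was at 62.7 to 66.8 FPKM in WT and 62.5 to 64.1 FPKM in Fmr1 KO. The ratio of Ldha to Ldhb was 4.76 to 5.07 in WT and 4.40 to 4.99 in Fmr1 KO (exact permutation test, two-sided, p = 0.3).

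The lactate transporters Slc16a1 (MCT1, of glia and vessels) and Slc16a3 (MCT4, of astrocytes) were slightly lower in the mean of Fmr1 KO, with overlapping libraries. Slc16a1 measured 22.1, 21.1 and 21.5 FPKM in WT and 21.1, 20.3 and 19.6 FPKM in Fmr1 KO. Slc16a3 measured 8.96, 10.3 and 8.73 FPKM in WT and 8.95, 8.52 and 7.71 FPKM in Fmr1 KO. The log2 differences were -0.08 ± 0.05 and -0.15 ± 0.09 (SE, n = 3 per genotype). Over the 7 ratios of related genes that were compared, including Pfkp to Pfkm and Slc16a3 to Slc16a1, none had libraries apart between the genotypes, and the lowest adjusted p was 0.7 (exact permutation tests, two-sided, of which the smallest possible raw p is 0.1).

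Among the genes that sense oxygen, Epas1 (HIF-2 alpha, prominent in glia and vessels) was lower in the mean of Fmr1 KO. It measured 23.0, 23.6 and 26 FPKM in WT and 20.2, 21.5 and 23.2 FPKM in Fmr1 KO, so that the highest Fmr1 KO library lay above the lowest WT library. The log2 difference was -0.16 ± 0.07 (SE, n = 3 per genotype; limma adjusted p = 0.332). Hif1a (HIF-1 alpha), by contrast, was at 25.8, 26.4 and 25.1 FPKM in WT and 26.4, 25.5 and 25.7 FPKM in Fmr1 KO, a difference of 0.01 ± 0.05 with a 95% interval from -0.10 to 0.12. Arnt, the partner of both, was at 8.06 to 8.20 FPKM in WT and 7.68 to 8.52 FPKM in Fmr1 KO. HIF alpha subunits are regulated mostly as proteins, which were not measured here.

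The prolyl hydroxylases pointed in different directions, neither of them past the test. Egln1 (PHD2, the main oxygen sensor) was at 39.6, 41.4 and 38.3 FPKM in WT and 43.4, 42.5 and 41.4 FPKM in Fmr1 KO, a log2 difference of 0.09 ± 0.05. The genotypes met only at WT replicate 2 and Fmr1 KO replicate 3. Egln3 (PHD3, itself induced by HIF) was at 8.14 to 9.20 FPKM in WT and 7.87 to 8.69 FPKM in Fmr1 KO, a difference of -0.06 ± 0.07 (SE, n = 3 per genotype).

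Of the 11 hypoxia response genes, 7 were lower and 4 higher by sign, where 48.3% of all tested loci were lower. Their median log2 difference was -0.05. Car9 (carbonic anhydrase IX, a membrane enzyme that acidifies the outside of hypoxic cells) measured 6.15, 5.67 and 5.26 FPKM in WT and 5.42, 4.72 and 4.31 FPKM in Fmr1 KO, a log2 difference of -0.24 ± 0.10 (SE, n = 3 per genotype; limma adjusted p = 0.322). The highest Fmr1 KO library exceeded the lowest WT library. The deposited range of the Car9 locus was 27446 bases long, against 6764 for the gene in GENCODE M21, and lay over part of Arhgef39 and Tpm2 on the other strand. As for Gapdh, the range does not show that their reads were counted, and the sources do not say whether reads were assigned by strand. Vegfa, the best known HIF target, was at 172, 178 and 173 FPKM in WT and 169.8, 175 and 159 FPKM in Fmr1 KO, a difference of -0.06 ± 0.05 with a 95% interval from -0.17 to 0.05.

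Bnip3 ranged more widely within a genotype than between the genotypes. It measured 83.9, 78.0 and 70.8 FPKM in WT and 81.6, 66.8 and 63.1 FPKM in Fmr1 KO, a log2 difference of -0.14 ± 0.10 (SE, n = 3 per genotype). Its relative Bnip3l was even, at 26.6 to 27.9 FPKM in WT and 26.6 to 29.0 FPKM in Fmr1 KO. P4ha1, which hydroxylates proline in collagen, measured 41.3, 42.6 and 40.9 FPKM in WT and 37.8, 40.6 and 37.8 FPKM in Fmr1 KO. All its Fmr1 KO libraries were below all WT libraries, the nearest of them by under 1 FPKM, at a log2 difference of -0.10 ± 0.05 (SE, n = 3 per genotype; limma adjusted p = 0.377). P4ha2, which does the same reaction, overlapped at 12.6 to 13.7 FPKM in WT and 11.1 to 13.6 FPKM in Fmr1 KO. The markers of fibroblasts and mural cells, which make collagen, summed to 47.7 to 52.3 FPKM in WT and 39.1 to 47.1 FPKM in Fmr1 KO, with 4 of the 8 under 1 FPKM, and their part in the lower P4ha1 was not tested.

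Ndrg1 (a stress-induced protein of myelinating and other cells) and Ero1l (an oxidase that helps proteins fold) were higher in the mean of Fmr1 KO. Ndrg1 was at 14.1, 15.6 and 12.6 FPKM in WT and 16.2, 15.6 and 14.7 FPKM in Fmr1 KO, a log2 difference of 0.14 ± 0.08. Ero1l was at 34.0, 36 and 32.1 FPKM in WT and 38.2, 37.4 and 33.9 FPKM in Fmr1 KO, a difference of 0.10 ± 0.06 (SE, n = 3 per genotype). Both overlapped between the genotypes. The oligodendrocyte lineage markers summed to 346 to 403 FPKM in WT and 396 to 439 FPKM in Fmr1 KO, with Olig1 at overlapping values. Of the 7 tested markers, 5 were higher and 2 lower in Fmr1 KO by sign. For 2 of them all Fmr1 KO libraries were above all WT libraries (28.6%, against 10.8% of tested loci). The part of these markers in the Ndrg1 values was not tested.

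The rest showed no difference that the libraries could resolve. Mxi1, an antagonist of Myc, was at 25.6 to 27.5 FPKM in WT and 24.1 to 27.9 FPKM in Fmr1 KO. Kdm3b, a histone demethylase, was at 9.89 to 12.3 FPKM in WT and 10.8 to 12.7 FPKM in Fmr1 KO. Ankrd37, a small ankyrin protein that HIF induces, had the widest spread of all, at 2.82, 2.64 and 2.52 FPKM in WT and 2.68, 3.55 and 1.77 FPKM in Fmr1 KO. Its 95% interval ran from -0.53 to 0.44 on the log2 scale. The range of its locus overlapped Lrp2bp and Ufsp2 on the other strand, which does not show that their reads were counted.

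Within a genotype, many of the genes deviated together from library to library. In 13 of the 40 genes (32.5%) replicate 1 was the highest library in WT and also in Fmr1 KO, against 19.4% of tested loci. Replicate 2 was the highest in both for 5 genes (12.5%, against 9.75%), and replicate 3 for 2 genes (against 11.7%). The 13 were Slc2a1, Aldoa, Tpi1, Pgk1, Eno1, Eno2, Pkm, Ldha, Slc16a1, Bnip3, Bnip3l, Car9 and Mxi1. Replicate 3 was the lowest library for 24 of the 40 genes in WT, against 30.7% of tested loci, and for 26 in Fmr1 KO, against 32.1%. Eno1 in replicate 1 lay 0.25 above its genotype mean in WT and 0.22 above it in Fmr1 KO on the log2 scale, and Bnip3 lay 0.12 and 0.22 above it. Deviations of this size in single genes exceed most of the differences between the genotypes. The median deviation of the 40 genes from the genotype mean was smaller, at 0.014 in WT replicate 1, -0.040 in WT replicate 3, 0.042 in Fmr1 KO replicate 1 and -0.036 in Fmr1 KO replicate 3. Replicates carry no order, and the labels do not say that libraries with the same number shared a litter or day.

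**Figure D4:**
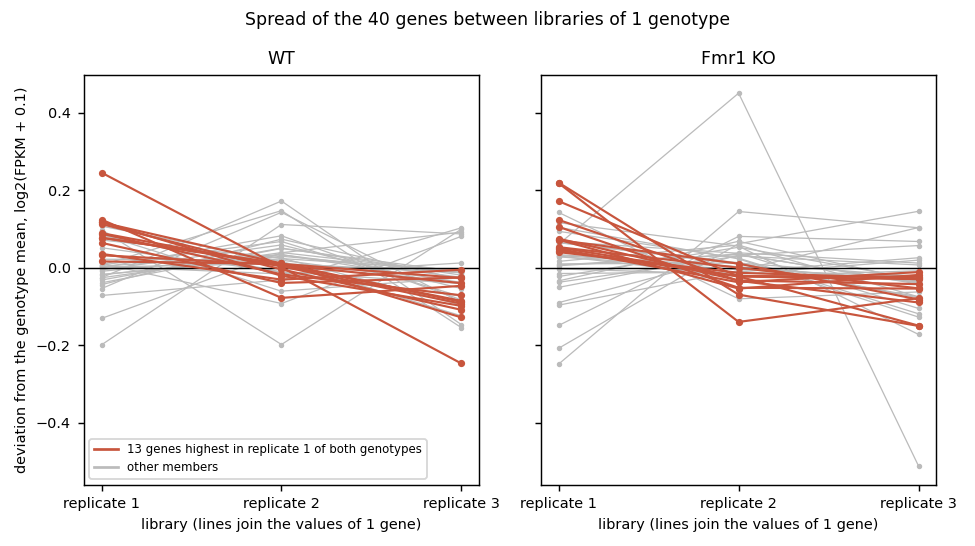
Deviation of each gene from the mean of its genotype, in log2(FPKM + 0.1), in the 3 WT libraries (left) and the 3 Fmr1 KO libraries (right). Each line is 1 gene, and red lines are the 13 genes that were highest in replicate 1 of both genotypes. Lines only join the values of a gene, since replicates have no order, and the grey line with the largest swing in Fmr1 KO is Ankrd37.

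The wider pathway was described with 109 further genes from 5 lists, of which 86 were tested. At an unadjusted p below 0.05, 9 of the 86 were lower in Fmr1 KO and 2 were higher, beside 7.77% and 6.99% of all tested loci, so that the lower count is near the background. At an adjusted p below 0.05, 2 were lower, beside 0.265% of all tested loci in either direction. These lists were also chosen with earlier results of these data known. A count above the background may thus come from the choice and is no independent finding about the pathway. Adm (adrenomedullin, a vessel-relaxing peptide induced by hypoxia) measured 10.4, 11.6 and 10.1 FPKM in WT and 5.83, 6.10 and 5.37 FPKM in Fmr1 KO, and fell by 0.88 ± 0.08 on the log2 scale (SE, n = 3 per genotype; limma adjusted p = 0.0037). Txnip (a thioredoxin-binding protein that restrains glucose uptake through Slc2a1) measured 14.1, 14.7 and 14.6 FPKM in WT and 10.9, 11.4 and 11.1 FPKM in Fmr1 KO, and fell by 0.38 ± 0.05 (SE, n = 3 per genotype; limma adjusted p = 0.0359). Adm stayed below an adjusted p of 0.05 in all 14 alternatives, whereas Txnip did so in 5, and not when any 1 of the 6 libraries was left out, although its log2 difference stayed between -0.41 and -0.35 throughout. No gene of the 40 had a difference of the size of the one in Adm.

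Of 34 other glycolysis genes, 18 were tested, with 16 lower and 2 higher by sign, where 48.3% of all tested loci were lower, and a median log2 difference of -0.06. Libraries did not overlap for 3 that were lower and 1 that was higher, beside 10.3% and 10.8% of all tested loci. Emb (embigin, a partner protein of lactate transporters) was at 5.18, 4.59 and 4.26 FPKM in WT and 3.81, 3.46 and 3.93 FPKM in Fmr1 KO, a log2 difference of -0.32 ± 0.10 (limma adjusted p = 0.212). Bsg (basigin, which carries Slc16a1 and Slc16a3 to the membrane), named after its values were seen, was at 318, 302 and 290.2 FPKM in WT and 271, 254.96 and 250.3 FPKM in Fmr1 KO, a difference of -0.23 ± 0.05 (limma adjusted p = 0.115). Pfkfb2, a relative of Pfkfb3, was at 13.6, 13.4 and 13.6 FPKM in WT and 15.8, 16.2 and 15.6 FPKM in Fmr1 KO, a difference of 0.23 ± 0.05 (limma adjusted p = 0.106).

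For the sign counts that follow, 48.3% of all tested loci were lower. The 13 genes of pyruvate entry into mitochondria had 8 lower and 5 higher by sign. Among them is Pdp1, the phosphatase that undoes the action of Pdk1. Pdp1 was at 9.91, 10.8 and 10.2 FPKM in WT and 9.07, 9.15 and 8.09 FPKM in Fmr1 KO. Its log2 difference was -0.23 ± 0.07 (limma adjusted p = 0.206). The 13 tested genes of the pentose phosphate and glycogen routes had 6 lower and 7 higher by sign, and none had libraries apart. The 11 further oxygen sensing genes had 3 lower and 8 higher by sign. Among them Rbx1, part of the ligase that degrades HIF alpha, was at 37.0, 34.6 and 36.4 FPKM in WT and 40.9, 38.8 and 37.1 FPKM in Fmr1 KO, a difference of 0.11 ± 0.05 (limma adjusted p = 0.385). The 31 tested other hypoxia response genes had 21 lower and 10 higher by sign. In this list, libraries did not overlap for 6 that were lower (19.4%, against 10.3% of all tested loci) and for 1 that was higher (3.23%, against 10.8%). Adm and Txnip belong to that list, and Rora, a nuclear receptor, was at 3.34, 3.70 and 3.61 FPKM in WT and 3.97, 3.96 and 4.18 FPKM in Fmr1 KO, a difference of 0.18 ± 0.08 (limma adjusted p = 0.360).

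Markers of other cells bear on genes that glia and vessels express. The 10 astrocyte markers summed to 1769 to 2083 FPKM in WT and 1831 to 2030 FPKM in Fmr1 KO, and the 12 neuron markers to 1793 to 1869 FPKM in WT and 1804 to 1937 FPKM in Fmr1 KO, so that both overlapped. The 9 microglia markers were all under 1 FPKM in the mean of the 6 libraries, 2 of them listed at 0 throughout, and C1qa, C1qb and C1qc passed the FPKM minimum only through their WT values. The list summed to 4.19 to 6.33 FPKM in WT and 1.06 to 2.41 FPKM in Fmr1 KO. The part of these cells in the levels of the 40 genes was not tested.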

How the data were processed

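The data are 3 WT and 3 Fmr1 KO libraries of RNA from cultures at DIV 14. The authors removed adapters and trimmed reads, mapped them to GRCm38 with TopHat2 and computed FPKM per locus and library with Cufflinks and Cuffdiff. Versions, annotation, strand setting, the handling of reads with several matches, and depth were not given in the sources used here. Further deposited columns hold the authors' own fold changes and p-values, which were not used. Of its 47086 loci, the 13195 with a mean of at least 1 FPKM in either genotype were fitted with limma 3.58.1 (R 4.3.3; moderated with a trend, two-sided) on log2(FPKM + 0.1) with genotype as the only term. Because of the added 0.1, differences of low genes are understated. Intervals are 95%. The script was tested on simulated data. Ratios were compared by exact permutation. The table of promoter windows is from RefSeq.

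The 40 genes and the other lists were chosen with earlier results of these data known. Named were all 40 genes, further pathway genes at an adjusted p below 0.05, the largest non-overlapping difference in each direction per list, the defining marker of each cell type, and Fmr1.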

Additional observations from a re-analysis of the deposited data

How the results depend on the processing

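None of the 40 genes reached an adjusted p below 0.05 in any of the 14 alternatives (37 genes were fitted with a minimum of 5 FPKM), and the lowest was 0.101, for Aldoa with the replicate block. The count lower at an unadjusted p below 0.05 was 6 as reported, 3 with limma without trend, 0 with libraries rescaled to the same sum without Bc1, and 1 to 9 with 1 library left out, with 3 without WT replicate 2 or Fmr1 KO replicate 2. The count higher was 0 as reported, 1 without an FPKM minimum (Pdk1), and 0 to 2 with 1 library left out, the 2 being Pdk1 and Ndrg1 without WT replicate 2. None of the 6 genes changed sign. Of the other pathway genes, 9 lower at an unadjusted p below 0.05 became 2 after rescaling and 8 to 13 with 1 library left out, and 2 higher became 1 without an FPKM minimum, 0 after rescaling and 1 to 5 with 1 library left out. The 2 at an adjusted p below 0.05 became 1, Adm, without an FPKM minimum, after rescaling, without trend and with any 1 library left out. Rescaling moved the median of all loci from 0.005 to -0.03 and lowered WT replicate 3, the library with the largest sum without Bc1, the most. The cause of these changes was not tested, and the unknown depth sets a limit that the files do not show.

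Same-numbered libraries of the genotypes correlated in their deviations at 0.243, 0.0577 and 0.0801 for replicates 1, 2 and 3. Replicate 1 of either genotype correlated at -0.152 to -0.119 with differently numbered libraries of the other, whereas replicates 2 and 3 crossed at 0.0658 and 0.0781. These values are not independent, since the deviations of a locus sum to 0 within each genotype. A positive value for replicate 1 therefore forces its crossings down and the remaining values up. The highest value was that of replicate 1. Among replicates 2 and 3, same-numbered libraries did not stand apart from differently numbered ones. The labels state no pairing, and the main fit used none. With the replicate block the unadjusted count of lower genes was 11 of the 40. The share of all tested loci at an unadjusted p below 0.05 is not given here for this or the other alternatives. These counts therefore have no background beside them and are not read as results about the 40 genes. The block leaves every mean difference as it was by construction. Over all loci, 35 had an adjusted p below 0.05 as reported (12 higher, 23 lower), 15 without an FPKM minimum, 54 with a minimum of 5 FPKM, 21 without trend, 65 with the replicate block, 14 to 20 with 1 library left out and 91 (41 higher, 50 lower) after rescaling.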
